A study of Mus musculus with 12 samples.

Results

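The 10 genes described here encode the transcription factor NRF2 (Nfe2l2), its inhibitor KEAP1 (Keap1) and 8 enzymes of antioxidant and detoxifying metabolism whose genes NRF2 is known to activate. They were chosen by gene symbol in a deposited table of 14822 genes, and all 10 were present. All 10 also passed the filter on low values, a TPM (transcript abundance scaled by length and to a fixed total) of at least 1 in at least 4 libraries, which left 10988 genes. The study measured polyadenylated RNA in whole livers of C57BL6/J mice, with 12 libraries, 4 in each of 3 groups. The FGF21 group ate a diet that induces MASH (steatohepatitis of metabolic origin, in which a fat-laden liver is inflamed and can scar) and received the endocrine fibroblast growth factor FGF21 at 1 mg per kg per day. The MASH vehicle group ate the same diet and received saline. The chow group ate chow and also received saline, and treatment lasted 4 weeks. The title of the series names a reversal of MASH by FGF21 through brain and liver; only liver RNA was analysed. Whether each library is a different mouse is not labelled, so the p-values measure the spread between these libraries, which may be technical.

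KEAP1 binds NRF2 in the cytosol and presents it to a CUL3 ubiquitin ligase for degradation. Oxidants and electrophiles modify cysteines of KEAP1, NRF2 then accumulates, pairs with small MAF proteins and binds antioxidant response elements of its target genes. Since this control acts on protein stability, the RNA of Nfe2l2 is known to be a poor readout of NRF2 activity, and the RNA of its targets is commonly used in its place. In liver the pathway is known for glutathione synthesis, the thioredoxin system, NADPH supply, heme breakdown and the handling of drugs and electrophiles.

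With FGF21 on the MASH diet, 3 of the 10 genes fell (Nqo1, Srxn1 and Hmox1) and 1 rose (Keap1), in a limma fit of log2(TPM + 1) over all 10988 genes with Benjamini-Hochberg adjusted p under 0.05. Of all genes tested, 4.28% were called lower and 6.02% higher in that comparison. On the MASH diet with vehicle, 7 of the 10 rose against chow and 0 fell (unadjusted p under 0.05 in 9 higher and 0 lower), where 29.5% of all genes were called higher and 7.84% lower. That count depended on the scaling: 3 of the 10 were higher with median-of-ratios scaling, 3 under quantile normalization, 4 with mitochondrial and Mup genes left out of the total and 4 with the trend with GC content removed, where 14.5%, 15.3%, 20.4% and 13.2% of all genes tested were. Against chow, FGF21 livers had 5 of the 10 higher (Ephx1, Keap1, Srxn1, Hmox1 and Txnrd1) and 1 lower (Nqo1), where 37.8% of all genes were called higher and 14.2% lower. The last count is near its background. The median log2 fold change of the 10 genes was −0.29 for FGF21 against MASH vehicle, 0.47 for MASH vehicle against chow and 0.43 for FGF21 against chow, beside −0.03, 0.19 and 0.20 over all genes. Groups that did not overlap in any library were lower with FGF21 than in MASH vehicle for 4 of the 10 genes (Nfe2l2, Gsr, Nqo1 and Hmox1) and higher for 0, where 6.63% and 7.47% of all genes had these patterns. MASH vehicle lay wholly above chow for 9 genes, all but Keap1, and wholly under it for 0 (33.1% and 9.52% of all genes). Leaving mitochondrial and Mup genes out of the total cut the 9 to 5. Quantile normalization cut it to 4, and so did median-of-ratios scaling. Under each of these settings 1 gene lay wholly higher with FGF21 than in MASH vehicle. FGF21 lay wholly above chow for 5 and wholly under it for 0 (30.5% and 5.99% of all genes). The 5 became 3 under each of these settings and with the GC trend removed. Wholly under chow lay 1 gene with median-of-ratios scaling and 1 with quantile normalization. Separations between groups given for single genes below are on TPM. Calls in either direction took 10.3%, 37.3% and 52% of all genes in these 3 comparisons. The 3 comparisons share groups, so they are not independent of each other.

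The columns summed to 991794 to 999891 TPM, and FGF21 replicates 1 and 3 fell furthest short of 1000000, by 7968 and 8206. The same 2 libraries held Cela1, the 1 of 5 acinar pancreas markers analysed here, at 429 and 578 TPM, against 28.8 and 43.2 in the other FGF21 libraries, 28.2 to 31.5 in MASH vehicle and 46.6 to 74.6 in chow. Of the 2 adipocyte markers in the table, Adipoq was at 2 and 1.9 TPM in the same 2 libraries, 0 in the other FGF21 libraries and at most 0.2 in the other groups, while Cfd was at 1.2 to 41.0 TPM in FGF21, 66.6 to 515 in MASH vehicle and 0.9 to 5.3 in chow. Their part in the results was not tested; calls gained or lost without these 2 libraries are given beside the gene. TPM is relative to the total, and the total changed with the diet: mitochondrially encoded genes took 5.67% ± 1.33 of it in FGF21 (mean ± SD over 4 libraries, as for every mean below), 6.6% ± 0.503 in MASH vehicle and 11.2% ± 1.43 in chow. Median-of-ratios scaling moved the median of all genes to −0.01 for MASH vehicle against chow and to 0.02 for FGF21 against chow. Of genes called in MASH vehicle against chow, 79.0% were higher on TPM, against 44.6% with that scaling, 45.9% with quantile normalization, 64.8% with mitochondrial and Mup genes left out of the total and 52.2% with the trend with GC content removed. For FGF21 against chow that share was 72.7% on TPM and 48.8%, 49.0%, 60.1% and 48.5% under these settings, and for FGF21 against MASH vehicle it was 58.5%, with 43.1% after the GC trend was removed. Sequencing depth is unknown, since TPM does not hold it. The 5 hepatocyte markers in the table summed to 57471 to 65120 TPM in FGF21 livers, 48070 to 53677 in MASH vehicle and 45790 to 56104 in chow, sums carried mostly by Alb and Apoa1. Against chow both were higher with FGF21, while Apob, Fgb and Ttr were lower; in MASH vehicle against chow Fgb and Ttr were lower and 0 of the 5 higher. In whole tissue, fewer cells of a type and less RNA per cell cannot be told apart.

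**Figure D1:**
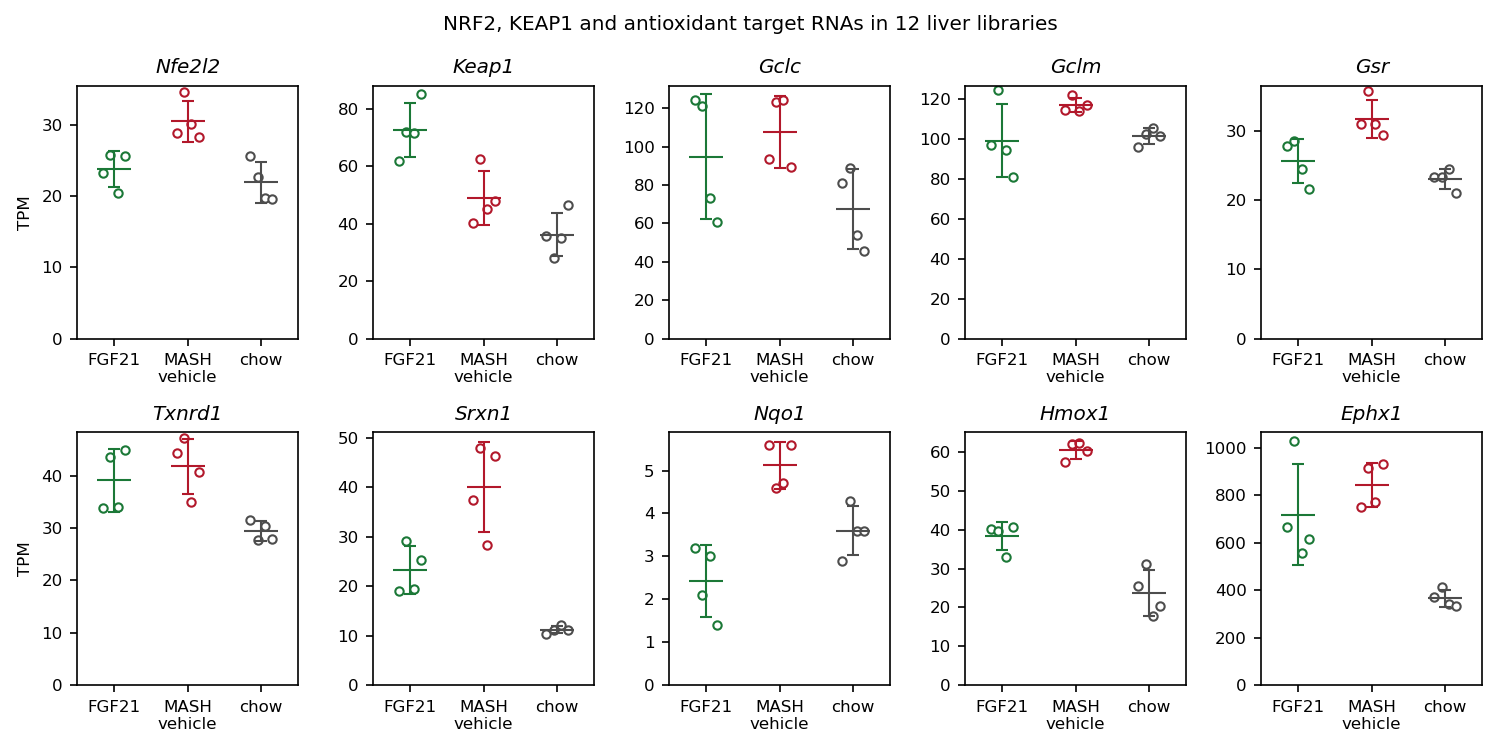
TPM of the 10 genes in each library (open circles), with the group mean (horizontal line) and SD (bars, n = 4); each panel has its own axis from 0. For Nqo1 and Hmox1 the FGF21 libraries all lie under the MASH vehicle libraries, for Keap1 the FGF21 mean of 72.6 TPM lies above the MASH vehicle mean of 48.9, and for Srxn1 and Ephx1 both MASH diet groups lie above chow.

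In each group Ephx1 had the highest mean TPM and Nqo1 the lowest, and TPM, being scaled by transcript length, allows that comparison between genes. In MASH vehicle the order was Ephx1, Gclm, Gclc, Hmox1, Keap1, Txnrd1, Srxn1, Gsr, Nfe2l2 and Nqo1. Neighbours in that order overlapped between their libraries, except Ephx1 with Gclm, Gclc with Hmox1 and Nfe2l2 with Nqo1. Gclc was the most variable gene within chow (CV 30.8%) and within FGF21 (CV 34.5%, next to Nqo1 at 34.4%), and Gclm and Hmox1 the least variable in MASH vehicle (CV 3.11% and 3.71%). FGF21 replicate 2 was the highest of its group for 5 of the 10 genes and the lowest for 0, and FGF21 replicate 3 the highest for 0 and the lowest for 3.

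Nfe2l2 (chromosome 2, 75675513 to 75704641, minus strand; whole genes in the GENCODE M21 annotation of build GRCm38 here and below, all protein-coding) encodes NRF2. It had 23.3, 25.8, 20.4 and 25.6 TPM in the FGF21 libraries, 28.9, 34.7, 30.1 and 28.3 in MASH vehicle and 25.7, 22.7, 19.8 and 19.6 in chow. All 4 FGF21 libraries lay under all 4 MASH vehicle libraries, and the FGF21 and chow libraries overlapped. On the MASH diet with vehicle it rose (log2 fold change 0.46 ± 0.12 SE, limma adjusted p = 0.0103), a call lost under quantile normalization (0.24, adjusted p = 0.134), under median-of-ratios scaling (0.24, 0.165) and with mitochondrial and Mup genes left out of the total (0.34, 0.0521). FGF21 against MASH vehicle gave −0.35 ± 0.12 (adjusted p = 0.0855), short of the threshold, and −0.40 with quantile normalization (adjusted p = 0.0452). Against chow the FGF21 value was 0.11 ± 0.12 (adjusted p = 0.448), and its sign depended on the scaling.

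Keap1 (chromosome 9, 21229730 to 21239361, minus strand) encodes the inhibitor and electrophile sensor. It had 61.8, 71.9, 71.6 and 85.0 TPM with FGF21, 40.3, 62.4, 45.0 and 47.9 in MASH vehicle and 35.5, 28.1, 34.8 and 46.3 in chow. FGF21 libraries were above the other groups, except that MASH vehicle replicate 2 lay just above FGF21 replicate 1. It rose with FGF21 against MASH vehicle (0.57 ± 0.16, limma adjusted p = 0.0426) and against chow (1.00 ± 0.16, adjusted p = 0.000545). The first call was narrow and was lost in 11 of 24 alternatives. These were the fit with no filter (adjusted p = 0.0523), the fit of only the groups compared (0.0576), the removal of the GC trend (0.35, 0.12), and leaving out FGF21 replicate 2, 3 or 4, MASH vehicle replicate 1, 3 or 4, or chow replicate 1 or 3 (0.0547 to 0.132). The call against chow held in all 24, with log2 fold changes of 0.50 to 1.12. MASH vehicle against chow gave 0.43 ± 0.16 (adjusted p = 0.0541), short of the threshold, and was called in 7 of 24 alternatives, among them the fit without FGF21 replicates 1 and 3 (0.0458). Of all 10 genes Keap1 was the only one that rose with FGF21 against MASH vehicle.

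The ratio of 2 transcripts within a library does not depend on how the total is scaled. It can depend on a trend with GC content, and the ratios were not recomputed with that trend removed. Mean transcript GC was 58.5% for Keap1 and 45.0% for Nfe2l2, and 59.8% for Srxn1 and 51.5% for Txnrd1. The ratio of Keap1 to Nfe2l2 was 2.65, 2.79, 3.51 and 3.32 in the FGF21 libraries, 1.39, 1.80, 1.49 and 1.69 in MASH vehicle and 1.38, 1.24, 1.76 and 2.36 in chow. Its mean was 3.07 ± 0.413 with FGF21, 1.6 ± 0.184 in MASH vehicle and 1.68 ± 0.502 in chow. Each FGF21 library was above every library of both other groups (exact permutation test, two-sided p = 0.0286 against each, the smallest that 4 against 4 can give, and 0.0514 adjusted over 9 ratio comparisons). MASH vehicle and chow overlapped (exact permutation p = 0.914). The 3 ratios tested were chosen after the values were seen, and a ratio shows unequal change, not which transcript moved.

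**Figure D2:**
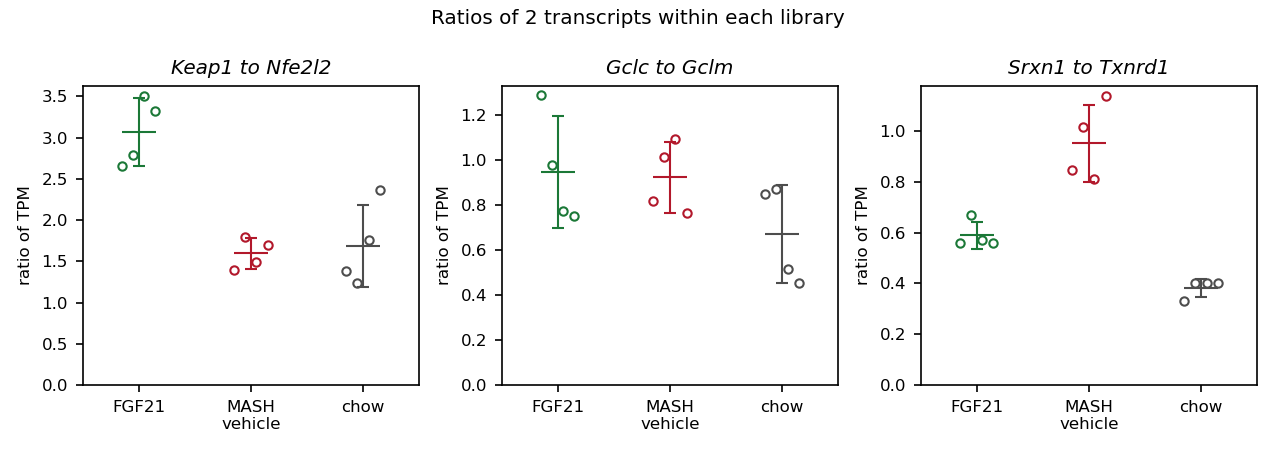
Ratios of 2 transcripts within each library (open circles), with the group mean (line) and SD (bars, n = 4), on axes from 0. The Keap1 to Nfe2l2 ratio is 2.65 to 3.51 with FGF21 and at most 2.36 elsewhere, Gclc to Gclm overlaps between all groups, and Srxn1 to Txnrd1 separates all 3 groups.

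Gclc (chromosome 9, 77754535 to 77794485, plus strand) and Gclm (chromosome 3, 122245557 to 122270732, plus strand) encode the catalytic and the modifier subunit of glutamate-cysteine ligase, the first and rate-limiting step of glutathione synthesis. Gclc had 124, 121, 73.2 and 60.6 TPM with FGF21, 93.7, 124, 124 and 89.2 in MASH vehicle and 81.3, 89.1, 54.1 and 45.9 in chow. MASH vehicle libraries lay above all chow libraries, replicate 4 of the first by a small margin, and the FGF21 libraries spanned nearly the range of both. Gclc rose on the MASH diet with vehicle (0.70 ± 0.26, limma adjusted p = 0.0456). That call was lost in 12 of 24 alternatives, among them every MASH vehicle library left out in turn, chow replicate 3 or 4, or FGF21 replicate 3 (0.051 to 0.119), no filter (0.0548), and all 4 changes of scaling or GC trend (0.11 to 0.291). FGF21 against MASH vehicle was −0.23 ± 0.26 (adjusted p = 0.605) and against chow 0.47 ± 0.26 (adjusted p = 0.137). The difference from chow passed without FGF21 replicate 4 (0.66, adjusted p = 0.0442).

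Gclm had 96.6, 124, 94.5 and 80.9 TPM with FGF21, 115, 122, 114 and 117 in MASH vehicle and 95.8, 102, 105 and 101.5 in chow. The MASH vehicle libraries were all above the chow libraries, but by little, and FGF21 replicate 2 was above both. On all 12 libraries Gclm passed in none of the 3 comparisons (0.20 ± 0.12 for MASH vehicle against chow, adjusted p = 0.172; −0.25 ± 0.12 for FGF21 against MASH vehicle, 0.188; −0.05 ± 0.12 for FGF21 against chow, 0.753), and the first value passed with only the groups compared (0.20, adjusted p = 0.0387) and changed sign with median-of-ratios scaling (−0.03) and with the GC trend removed (−0.07). The ratio of Gclc to Gclm averaged 0.947 ± 0.249 with FGF21, 0.922 ± 0.158 in MASH vehicle and 0.672 ± 0.219 in chow, with overlap between all groups (exact permutation p = 0.971 for FGF21 against MASH vehicle, 0.171 for MASH vehicle against chow).

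Gsr (chromosome 8, 33652523 to 33698163, plus strand) encodes glutathione reductase, which regenerates reduced glutathione with NADPH. It had 27.8, 28.6, 24.6 and 21.6 TPM with FGF21, 31.0, 35.8, 31.0 and 29.4 in MASH vehicle and 23.3, 23.4, 24.6 and 21.0 in chow. The MASH vehicle libraries were above every other library, and FGF21 and chow overlapped. Gsr rose on the MASH diet with vehicle (0.44 ± 0.11, limma adjusted p = 0.00856), but not under quantile normalization (0.22, adjusted p = 0.159), median-of-ratios scaling (0.22, 0.132), mitochondrial and Mup genes left out (0.32, 0.0524) or the GC trend removed (0.21, 0.179). FGF21 against MASH vehicle was −0.30 ± 0.11 and did not pass (adjusted p = 0.106). Against chow it was 0.14 ± 0.11 (adjusted p = 0.307), with a sign that depended on the scaling.

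Srxn1 (chromosome 2, 152105516 to 152111376, plus strand) encodes sulfiredoxin, which repairs hyperoxidised peroxiredoxins. It had 19.0, 29.2, 19.5 and 25.2 TPM with FGF21, 37.5, 48.0, 28.4 and 46.4 in MASH vehicle and 10.4, 11.1, 12.2 and 11.2 in chow. Both MASH diet groups were above chow in every library, and FGF21 replicate 2 was just above MASH vehicle replicate 3. Srxn1 had the largest fold change of the 10 genes on the MASH diet with vehicle (1.72 ± 0.17, limma adjusted p = 1.46e-05), which held in all 24 alternatives at 1.44 to 1.87. It fell with FGF21 against MASH vehicle (−0.75 ± 0.17, adjusted p = 0.0162) and was still higher than in chow (0.97 ± 0.17, adjusted p = 0.000876). The fall did not pass without MASH vehicle replicate 4 (−0.68, adjusted p = 0.0548) or without FGF21 replicates 1 and 3 (−0.52, 0.0548).

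Txnrd1 (chromosome 10, 82833951 to 82897712, plus strand) encodes cytosolic thioredoxin reductase, which reduces thioredoxin with NADPH. It had 33.9, 43.6, 34.1 and 45.0 TPM with FGF21, 44.3, 47.3, 35.0 and 40.8 in MASH vehicle and 31.6, 27.7, 30.5 and 27.9 in chow. The 2 MASH diet groups overlapped widely, and both were above all chow libraries. Txnrd1 rose on the MASH diet with vehicle (0.49 ± 0.13, limma adjusted p = 0.00998) and was higher in FGF21 than in chow (0.39 ± 0.13, adjusted p = 0.0213). The first call was lost under quantile normalization (0.28, adjusted p = 0.0711), median-of-ratios scaling (0.26, 0.131) and the GC trend removed (0.15, 0.288). The second was lost in 7 of 24 alternatives, and its size fell to 0.18 with median-of-ratios scaling (adjusted p = 0.249), 0.12 under quantile normalization (0.412), 0.26 with mitochondrial and Mup genes left out (0.0949) and 0.05 with the GC trend removed (0.704). The other losses came without FGF21 replicate 2 (0.0682), FGF21 replicate 4 (0.0555) or chow replicate 2 (0.0563). FGF21 against MASH vehicle was −0.10 ± 0.13 (adjusted p = 0.672), and 0.09 without FGF21 replicates 1 and 3. The ratio of Srxn1 to Txnrd1 was 0.56, 0.67, 0.572 and 0.56 with FGF21, 0.846, 1.01, 0.811 and 1.14 in MASH vehicle and 0.329, 0.401, 0.4 and 0.401 in chow. No libraries overlapped between any of the 3 groups (exact permutation p = 0.0286 in each comparison, 0.0514 adjusted over the 9).

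Nqo1 (chromosome 8, 107388225 to 107403206, minus strand) encodes the quinone reductase that is the usual marker gene of NRF2 activity. It was the least abundant of the 10, with 3.2, 2.1, 3.0 and 1.4 TPM with FGF21, 5.6, 4.6, 4.7 and 5.6 in MASH vehicle and 2.9, 4.3, 3.6 and 3.6 in chow. All FGF21 libraries were under all MASH vehicle libraries, and the highest FGF21 libraries were above the lowest chow library. It had the largest fall of the 10 genes with FGF21 against MASH vehicle (−0.87 ± 0.17, limma adjusted p = 0.00781), a call that held in all 23 alternatives in which Nqo1 was tested. Without FGF21 replicates 1 and 3 the fall was −1.16. It was also lower than in chow (−0.45 ± 0.17, adjusted p = 0.0372), and −0.75 without FGF21 replicates 1 and 3. That call was lost in 7 of 23 alternatives: without FGF21 replicate 2 (0.0914) or 4 (0.107), without chow replicate 2 (0.103), 3 (0.0672) or 4 (0.0627), with the GC trend removed (0.0567) and with only the groups compared (0.0707). The MASH vehicle libraries lay above all chow libraries, but the difference of 0.42 ± 0.17 did not pass (adjusted p = 0.0644). It passed in 5 of 23 alternatives, such as without FGF21 replicate 1 (0.0403), replicate 4 (0.0234) or replicates 1 and 3 (0.0192), which enter only through the shared spread.

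Hmox1 (chromosome 8, 75093621 to 75100589, plus strand) encodes heme oxygenase 1, which breaks heme down to biliverdin, iron and carbon monoxide, and macrophages that clear red cells are known to express it strongly. It had 40.3, 39.6, 32.9 and 40.8 TPM with FGF21, 57.5, 62.2, 62.3 and 60.3 in MASH vehicle and 25.6, 31.3, 17.7 and 20.4 in chow. The 3 groups did not overlap. Hmox1 rose on the MASH diet with vehicle (1.35 ± 0.15, limma adjusted p = 2.91e-05) and fell with FGF21 against MASH vehicle (−0.65 ± 0.15, adjusted p = 0.0167), both in all 24 alternatives. It stayed higher than in chow (0.70 ± 0.15, adjusted p = 0.00248), which was lost only with the GC trend removed (0.26, 0.221). The summed TPM of 9 genes listed as markers of recruited macrophages separated the groups the same way, with 75.8 to 109 in FGF21, 145 to 197 in MASH vehicle and 29.5 to 35.9 in chow. These sums were carried mostly by Cd9, Cd68, Lgals3 and Lpl. Of 8 tested, 6 fell with FGF21 and all 8 rose in MASH vehicle against chow, where 4.28% and 29.5% of all genes did. The 6 became 4 with only the groups compared, and 4 without FGF21 replicate 2 or 4. Itgax and Gpnmb passed the filter mainly through MASH vehicle (1.5 to 2.0 and 1.6 to 6.8 TPM, at most 0.2 and 0.1 in chow), so it favoured their calls. The 5 Kupffer cell markers summed to 170 to 319 TPM in FGF21, 195 to 265 in MASH vehicle and 60.1 to 76.5 in chow. In FGF21 against MASH vehicle 1 of these 5 was higher and 0 lower, where 6.02% and 4.28% of all genes were (0 higher with the GC trend removed). None of these markers was at 0 in every library of a group. Their part in the Hmox1 values was not tested.

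Ephx1 (chromosome 1, 180976210 to 181020904, minus strand) encodes microsomal epoxide hydrolase, an enzyme of drug metabolism that xenobiotic receptors such as CAR are also known to induce. It was the most abundant of the 10, with 665, 1029, 558 and 616 TPM with FGF21, 751, 914, 773 and 931 in MASH vehicle and 372, 414, 340.1 and 335 in chow. Both MASH diet groups were above every chow library, and FGF21 replicate 2 was the highest of all 12. Ephx1 rose on the MASH diet with vehicle (1.20 ± 0.16, limma adjusted p = 0.000144) and was higher in FGF21 than in chow (0.93 ± 0.16, adjusted p = 0.000818), both in all 24 alternatives. FGF21 against MASH vehicle was −0.27 ± 0.16 (adjusted p = 0.334), and −0.07 without FGF21 replicates 1 and 3. Without FGF21 replicate 2 it passed as lower (−0.45, adjusted p = 0.0484). On the MASH diet with vehicle 4 of 6 tested target genes of the receptors CAR, PXR and AhR fell and 1 rose. Of all genes 7.84% and 29.5% did. The 1 that rose was Ugt1a1, bilirubin glucuronosyltransferase (251 ± 12.1 TPM in MASH vehicle and 160 ± 26.5 in chow). Of those that fell, Cyp1a2, an AhR target, was at 249.8 ± 33.5 TPM in MASH vehicle and 507 ± 108 in chow. Cyp2c55 and Tiparp passed the filter mainly through chow, so it favoured their calls as lower. They had 1.4 to 3.0 and 0.9 to 2.0 TPM in chow, and at most 1.1 and 1.0 elsewhere. On the diet 3 of the 6 fell and 2 rose with the GC trend removed, where 12.1% and 13.2% of all genes did. With FGF21 against MASH vehicle 1 of the 6 fell, Cyp3a11 (264 ± 117 and 662 ± 174 TPM), where 4.28% of all genes did. With the GC trend removed 2 of the 6 fell, where 5.50% of all genes did. Cyp2c55 was at 0.25 ± 0.129 TPM with FGF21 and 0.825 ± 0.25 in MASH vehicle, which did not pass (limma adjusted p = 0.0517). Their part in the Ephx1 values was not tested.

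**Figure D3:**
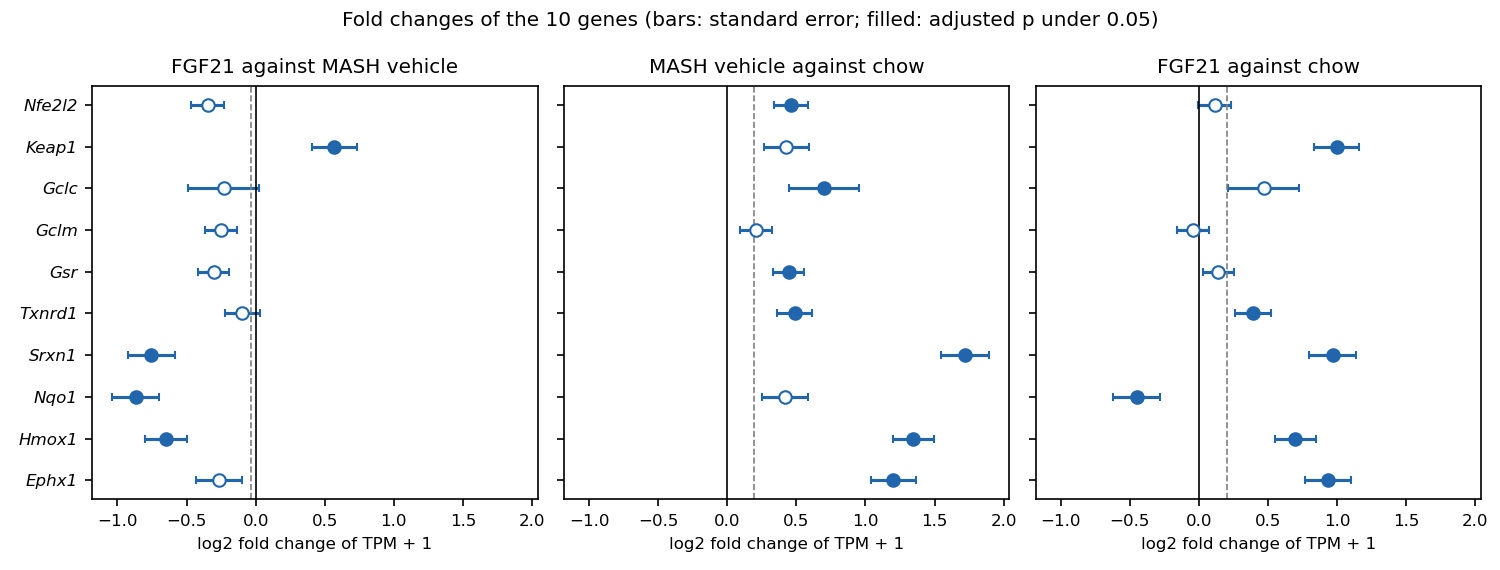
Log2 fold change of TPM + 1 for the 10 genes in the 3 comparisons, with SE as bars, filled circles for an adjusted p under 0.05 and a dashed line at the median of all genes. For FGF21 against MASH vehicle only Keap1 lies on the positive side (0.57), and Nqo1, Srxn1 and Hmox1 lie furthest to the negative side (−0.87, −0.75 and −0.65).

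Promoter sequence is shown for the genes with the largest rise on the diet, the largest fall with FGF21 and the only rise with FGF21. RefSeq windows of 300 bases on build GRCm38.p6, 250 before and 50 after a start site, were found for 7 of the 10 genes, with 9 windows in all, and not for Gclc, Gsr or Hmox1. Each is given 5′ to 3′ on the strand of its gene. Capitals mark matches on either strand to TGACNNNGC, the core of the antioxidant response element, or to TGANTCAGC, a form bound by NRF2 with small MAF proteins that was searched after the Srxn1 window had been seen. The 2 overlap where the fourth base of the second is C.
Srxn1, plus strand, chr2:152105274-152105573: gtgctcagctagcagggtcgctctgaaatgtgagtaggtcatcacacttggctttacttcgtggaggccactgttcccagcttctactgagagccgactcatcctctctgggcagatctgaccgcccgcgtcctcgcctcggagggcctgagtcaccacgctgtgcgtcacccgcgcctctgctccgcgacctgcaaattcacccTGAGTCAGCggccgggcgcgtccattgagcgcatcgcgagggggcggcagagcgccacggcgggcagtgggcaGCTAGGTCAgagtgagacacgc
Nqo1, minus strand, chr8:107403156-107403455: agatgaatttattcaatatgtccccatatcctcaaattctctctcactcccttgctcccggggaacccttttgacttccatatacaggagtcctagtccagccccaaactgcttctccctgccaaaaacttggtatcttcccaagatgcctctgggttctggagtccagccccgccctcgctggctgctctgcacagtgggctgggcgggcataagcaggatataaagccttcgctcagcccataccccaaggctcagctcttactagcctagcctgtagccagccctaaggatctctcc
Keap1, minus strand, chr9:21239283-21239582: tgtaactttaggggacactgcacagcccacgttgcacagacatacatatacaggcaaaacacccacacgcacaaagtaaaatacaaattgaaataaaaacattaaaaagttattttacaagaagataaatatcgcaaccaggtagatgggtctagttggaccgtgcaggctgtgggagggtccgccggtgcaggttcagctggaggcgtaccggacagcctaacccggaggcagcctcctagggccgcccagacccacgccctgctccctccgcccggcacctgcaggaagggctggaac
The Srxn1 window held TGAGTCAGC on the forward strand from position −45 of the start site and GCTAGGTCA, a match to the first motif on the other strand, from position 28 (the start site counted as 0). No match lay in the Nqo1, Keap1 or Ephx1 windows. Nfe2l2, Gclm and 1 of 3 Txnrd1 windows each held 1 match to the first motif. So 4 of 7 genes held the first motif, which 16.9% of the 8750 tested genes with a window held. The second was searched because it had been seen in the Srxn1 window, so that match is no finding. A match describes letters in the window, not binding, and a window without one says nothing of sites outside it.

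The other genes of the pathway were taken from 7 lists of 63 genes, of which 61 were tested. With FGF21 against MASH vehicle 19 fell and 0 rose, where 4.28% of all genes were called lower and 6.02% higher. The median log2 fold change of the 61 was −0.24 (limma; at an unadjusted p under 0.05, 27 were lower and 1 higher). Over 24 alternatives 15 to 24 fell and 0 to 2 rose, the 2 without FGF21 replicates 1 and 3. On the MASH diet with vehicle 33 rose and 2 fell, Adh7 and Gstm6, with a median of 0.48, where 29.5% of all genes were called higher and 7.84% lower. With median-of-ratios scaling 22 rose and 7 fell, where 14.5% and 18.0% of all genes did. With the GC trend removed 18 rose and 2 fell, where 13.2% and 12.1% of all genes did. For FGF21 against chow 22 were higher and 11 lower, where 37.8% and 14.2% of all genes were, and the higher count is near its share. This turned to 8 higher and 19 lower with median-of-ratios scaling (23.2% and 24.4% of all genes), so no direction holds for that comparison. The shares given here for each comparison and setting apply to the counts of the lists below too.

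**Figure D4:**
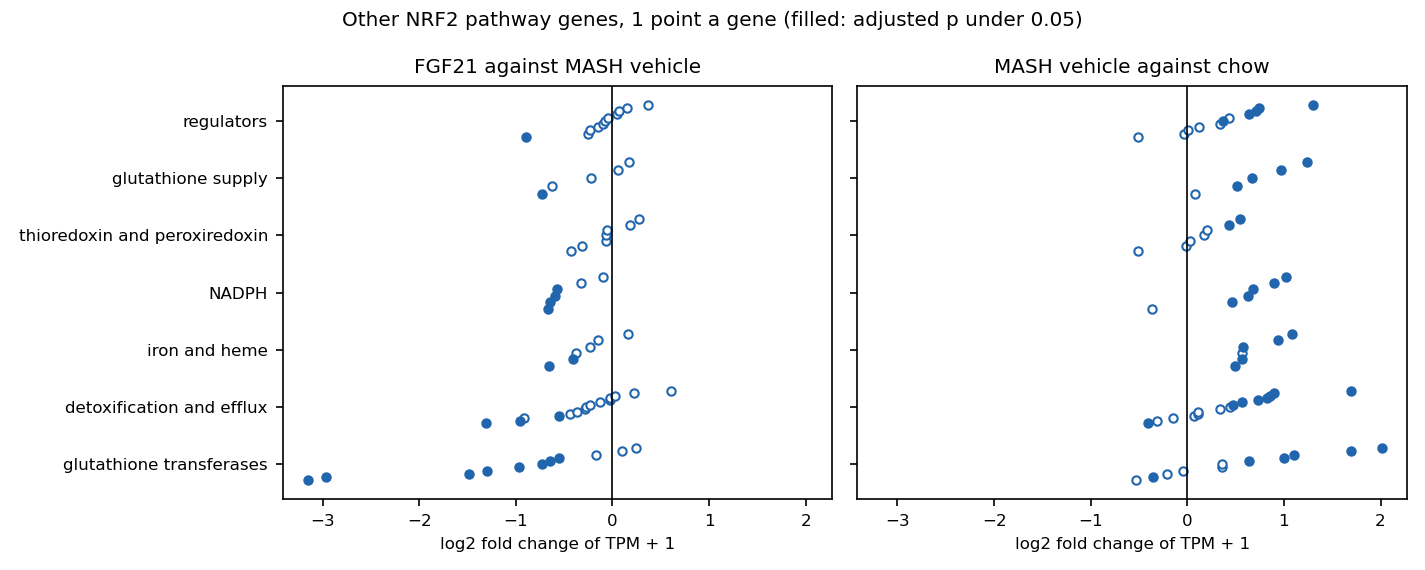
Log2 fold change of TPM + 1 for 61 other genes of the NRF2 pathway in 7 lists, 1 circle a gene, filled for an adjusted p under 0.05. For FGF21 against MASH vehicle all 19 filled circles lie under 0, 8 of them glutathione transferases, and for MASH vehicle against chow 33 of 35 lie above 0.

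NADPH is the reductant used by Gsr and Txnrd1. Of 6 genes listed under its supply 5 rose on the MASH diet with vehicle. With FGF21 4 of 6 fell, where 29.5% and 4.28% of all genes were called in these directions. The first count was 4 with median-of-ratios scaling, with 1 lower, and 2 with the GC trend removed, and the second was 4 under both. Tkt, transketolase of the pentose phosphate pathway, had 177, 187.5, 203 and 151 TPM with FGF21, 276.5, 274, 300.2 and 276 in MASH vehicle and 194, 187, 164 and 156 in chow. Its MASH vehicle libraries stood above all others (−0.65 ± 0.11 for FGF21 against MASH vehicle, limma adjusted p = 0.00383; 0.68 ± 0.11 for MASH vehicle against chow, 0.000426). Taldo1, transaldolase, averaged 192 ± 34.2 TPM with FGF21, 287 ± 25.6 in MASH vehicle and 185 ± 10.5 in chow, and fell with FGF21. Neither Tkt nor Taldo1 makes NADPH itself, so the counts are not of NADPH-producing enzymes alone. Pgd, 6-phosphogluconate dehydrogenase, averaged 61.8 ± 5.38, 92.8 ± 8.4 and 45.7 ± 7.95 TPM in the same groups and rose on the diet. The fourth that fell was Me1, malic enzyme, at 92 ± 15.5 TPM with FGF21 and 147 ± 31.4 in MASH vehicle (−0.66 ± 0.17, adjusted p = 0.0256), named after its value was seen.

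Among 11 regulators of the pathway 5 rose on the MASH diet with vehicle, where 29.5% of all genes did, and 1 fell with FGF21, where 4.28% did. The count that rose was 3 with median-of-ratios scaling, with 1 lower, and 1 with the GC trend removed. The gene that fell was Maff, a small MAF protein that pairs with NRF2, with 8.0, 7.2, 6.1 and 6.3 TPM with FGF21, 13, 13.5, 12.7 and 15.4 in MASH vehicle and 4.3, 4.8, 4.3 and 6.6 in chow. FGF21 lay under MASH vehicle in every library (−0.89 ± 0.14, limma adjusted p = 0.0022), and MASH vehicle above chow in every library (1.30 ± 0.14, adjusted p = 1.83e-05). Sqstm1, the autophagy receptor p62 that binds KEAP1, rose on the diet (721 ± 95 and 463 ± 35.5 TPM in MASH vehicle and chow) and was at 748 ± 111 TPM with FGF21. Nfe2l1, which encodes the related factor NRF1, was at 167 ± 43.5 TPM with FGF21 and 126 ± 13.3 in MASH vehicle, a difference that did not pass (adjusted p = 0.213).

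Of 5 tested genes of glutathione supply 4 rose on the diet (2 with median-of-ratios scaling, 2 with the GC trend removed) and 1 fell with FGF21. Gss, glutathione synthetase, which completes the synthesis begun by Gclc and Gclm, averaged 115 ± 14.4 TPM with FGF21, 135 ± 24 in MASH vehicle and 56.4 ± 5.73 in chow. It rose on the diet (1.23 ± 0.13, limma adjusted p = 2.61e-05) and FGF21 against MASH vehicle did not pass (−0.23 ± 0.13, 0.316). The amino acid transporter gene Slc1a4 fell with FGF21 (1.52 ± 0.25 TPM, against 3.2 ± 0.589 in MASH vehicle) and rose on the diet against 1.15 ± 0.351 in chow. Ggct, gamma-glutamylcyclotransferase, was at 5.9 ± 2.82 TPM with FGF21 and 9.1 ± 0.56 in MASH vehicle, which did not pass (adjusted p = 0.109).

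Of 7 genes of the thioredoxin and peroxiredoxin list 2 rose on the diet, Glrx (glutaredoxin, 33.8 ± 4.65 TPM in MASH vehicle and 22.8 ± 2.72 in chow) and Txnrd2 (mitochondrial thioredoxin reductase, 65.0 ± 2.96 and 48.2 ± 3.28 TPM). That share is near the 29.5% of all genes called higher, and the count was 0 with median-of-ratios scaling and 1 with the GC trend removed. With FGF21 against MASH vehicle 0 of the 7 passed in limma, and at an unadjusted p under 0.05 1 was higher and 1 lower. Txnrd2 was at 79.3 ± 7.09 TPM with FGF21 (adjusted p = 0.0829 against MASH vehicle), and Txn1, thioredoxin, at 198 ± 61.2 TPM, against 258 ± 25 in MASH vehicle (adjusted p = 0.137).

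Of 6 genes of iron and heme handling 5 rose on the diet (3 with median-of-ratios scaling, 2 with the GC trend removed) and 2 fell with FGF21, the ferritin chains Ftl1 and Fth1 (4 of the 6 with the GC trend removed, 1 under quantile normalization). Ftl1 averaged 6456 ± 1098 TPM with FGF21, 10058 ± 737 in MASH vehicle and 7199 ± 1013 in chow, and Fth1 averaged 2292 ± 299, 3023 ± 112 and 2032 ± 74.4 TPM. Ferritin genes have many pseudogene copies, which can share reads, so these levels are uncertain. Slc48a1, a heme transporter, rose on the diet (89.4 ± 8.13 TPM in MASH vehicle and 41.8 ± 4.79 in chow), as did Blvrb, biliverdin reductase B (299 ± 26.8 and 155 ± 17.7 TPM).

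Of 15 genes of detoxification and efflux 7 rose and 1 fell on the diet (5 and 2 with median-of-ratios scaling, 5 and 0 with the GC trend removed), and 3 fell with FGF21. These 3 were Ugdh, UDP-glucose dehydrogenase (38.9, 45.7, 40.6 and 30.3 TPM with FGF21, against 69.1, 82.7, 69.9 and 81.9 in MASH vehicle), the carbonyl reductase Cbr3 (1.15 ± 0.265 and 4.57 ± 2.12 TPM) and the efflux pump Abcc4 (0.625 ± 0.0957 and 1.4 ± 0.294 TPM). Neither Ugdh nor Cbr3 nor Abcc4 overlapped between these groups. Abcc4 reached 1 TPM only in MASH vehicle (1.1 to 1.8, against at most 0.7 with FGF21 and 0.4 in chow). It passed the filter only through the group where it is high, so its calls and separation, though counted here, are no finding. Its values are also low and rounded to 1 decimal. In chow Ugdh averaged 54.3 ± 4.88 TPM, Cbr3 0.65 ± 0.252 and Abcc4 0.35 ± 0.0577.

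Of 11 glutathione transferases 8 fell with FGF21 and 0 rose, where 4.28% of all genes were called lower and 6.02% higher. On the diet 5 rose and 1 fell, where 29.5% and 7.84% of all genes did. With the GC trend removed 7 fell with FGF21, and with median-of-ratios scaling 5 rose and 2 fell on the diet. The largest falls were in Gsta1 (1.48 ± 0.793 TPM with FGF21 and 20.9 ± 5.82 in MASH vehicle) and Gstm3 (41.4 ± 13.9 and 333 ± 122 TPM), both with near-identical family members between which reads can be split, so these levels are uncertain. Among 9 antioxidant enzymes outside the usual NRF2 targets 3 rose on the diet, Gpx1, Gpx3 and Gpx4 (a share near that of all genes; 1 with the GC trend removed), and 2 fell with FGF21 (4 with the GC trend removed). The 2 were Gpx4, a glutathione peroxidase that reduces lipid peroxides (502 ± 87.4 TPM with FGF21, 833 ± 98.3 in MASH vehicle and 507 ± 74.5 in chow), and Prdx3, a mitochondrial peroxiredoxin (55.4 ± 6.68, 73.8 ± 4.15 and 75.6 ± 7.91 TPM).

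Likeness of pattern was measured as the root-mean-square difference of z-scored log2(TPM + 1) over the 12 libraries, with the 3 closest genes named. Closest to Srxn1 were Synpo, Fez2 and Prune1 (0.173, 0.173 and 0.174, where the median gene was at 1.07). Closest to Hmox1 were Evi2a, Card9 and Arsb (0.288, 0.293 and 0.295, median gene 1.12). Closest to Nqo1 were Gtf2h5, Ubxn8 and Gyg (0.312, 0.337 and 0.366, median gene 1.31). Evi2a averaged 0.95 TPM with FGF21, 1.8 in MASH vehicle and 0.3 in chow, so its pattern rests on low values rounded to 1 decimal.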

How the data were processed

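RNA of 12 mouse liver libraries was analysed from the authors' deposited table. Per the labels' protocols, Qiagen columns were used for the RNA, followed by oligo-dT selection. Build mm10 (GRCm38), Salmon 1.10.2 and Trim Galore 6.10 are listed in the submitters' processing notes, with no annotation or gene filter given in the sources used here. The deposited values are named FPKM and normalized counts, but sum to just under 1000000 per column, so they were read as TPM; the authors kept 1 decimal. The log-scale test fixed earlier also suits TPM. All columns were matched to samples by library name.

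Genes with at least 1 TPM in at least 4 libraries were tested as log2(TPM + 1), a scale that understates changes of low genes, in limma 3.58.1 (R 4.3.3) with trend and robust options. One model with 3 groups held all 12 libraries, tests were two-sided and Benjamini-Hochberg adjusted over all 10988 genes, and the threshold was 0.05. The fit was tested on simulated data. Ratios used exact permutation tests (scipy 1.17.1). Alternatives were pseudocounts of 0.1 and 5, no filter, a filter at 5 TPM, 4 changes of scaling or GC trend, other fits, and libraries left out. From each other list the text names the 2 genes with the smallest p in FGF21 against MASH vehicle, the 2 in MASH vehicle against chow, and every called gene where a list had 3 or fewer calls. Me1, Adh7, Gstm6, Tiparp, Cela1, Adipoq, Cfd and the hepatocyte and recruited macrophage markers were named outside that rule, after their values were seen. The 10 genes, the lists and the ratios were chosen with earlier results of these data known. At most 4.47% of tested genes had equal TPM in any 2 libraries.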

Additional observations from a re-analysis of the deposited data

Results flagged for a closer look

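Within the FGF21 group, Hmox1 in replicate 3 stood apart at 32.9 TPM, where the other 3 libraries held 39.6 to 40.8 TPM. Its gap to the nearest library was 0.848 of the range of the group, above Dixon's 95% critical value for 4 samples. The value was still under every MASH vehicle library (57.5 to 62.3 TPM) and above every chow library (17.7 to 31.3 TPM). It was the only such value among 30 groups of 4 checked over the 10 genes, and chance gives about 1 in 20 groups.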

How the results depend on the processing

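The calls of Hmox1 and Nqo1 as lower with FGF21 than in MASH vehicle, of Srxn1, Hmox1 and Ephx1 as higher in MASH vehicle than in chow, and of Keap1, Srxn1 and Ephx1 as higher with FGF21 than in chow held in every alternative in which the gene was tested (Nqo1 was not tested with the filter at 5 TPM). For FGF21 against MASH vehicle, genes called over the whole table numbered 1132, 631 with only the groups compared, 2988 without FGF21 replicates 1 and 3, and 549 to 2217 with single libraries left out. Of the 10 genes 0 were higher with no filter, with the GC trend removed and with only the groups compared (0 to 1 with single libraries left out), and 2 to 4 were lower with single libraries left out. For MASH vehicle against chow, 4103 genes were called, 2730 with the GC trend removed and 2826 to 4874 with single libraries left out. Of the 10 genes 3 were higher with median-of-ratios scaling and 3 with quantile normalization, 4 with mitochondrial and Mup genes left out and 4 with the GC trend removed, beside 14.5%, 15.3%, 20.4% and 13.2% of all genes tested (6 to 9 with single libraries left out). For FGF21 against chow, 5713 genes were called, 3337 with the GC trend removed and 4312 to 6474 with single libraries left out. Of the 10 genes 3 were higher with the GC trend removed (4 to 5 with single libraries left out), and 0 were lower with the filter at 5 TPM, the GC trend removed and only the groups compared (0 to 1 with single libraries left out). The cause was not tested, except that the filter at 5 TPM removed Nqo1.

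Signs changed only where the value did not pass. For FGF21 against chow these were Nfe2l2 at −0.16 under quantile normalization, −0.095 under median-of-ratios scaling and −0.017 with mitochondrial and Mup genes left out, Gsr at −0.14 and −0.067 under the first 2 of these and −0.037 with the GC trend removed, and Gclm at 0.044 without FGF21 replicate 4. For MASH vehicle against chow Gclm was at −0.026 under median-of-ratios scaling and −0.074 with the GC trend removed. For FGF21 against MASH vehicle Txnrd1 was at 0.089 without FGF21 replicates 1 and 3. The log2 ratio of Keap1 to Nfe2l2 in MASH vehicle against chow turned to 0.02 without MASH vehicle replicate 1 and 0.14 without chow replicate 4, over a range of −0.17 to 0.14 with single libraries left out. That of Gclc to Gclm in FGF21 against MASH vehicle turned to −0.14, −0.01, −0.03 and −0.07 without FGF21 replicate 1 or 2 or MASH vehicle replicate 1 or 4, within a range of −0.14 to 0.12 with single libraries left out, and to −0.092 without FGF21 replicates 1 and 3.

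Same-numbered libraries are not labelled as pairs. The correlation of their deviations from the group means ran from −0.18 to 0.41, and libraries did not all correlate best with their own number. Replicate 4 did so in all 3 comparisons (0.28, 0.40 and 0.41) and replicate 3 in none. Whether they share more than a number was not tested. With the replicate block, 3 of the 10 genes were lower and 1 higher in FGF21 against MASH vehicle, 8 were higher in MASH vehicle against chow, where Keap1 passed (adjusted p = 0.0409), and 6 were higher and 1 lower in FGF21 against chow, where Gclc passed (0.0342). TPM holds no depth, so counting error is not known, and Nqo1 at 1.4 to 5.6 TPM rests on values rounded to 1 decimal.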
